A study of Mus musculus with 6 samples.

Results

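Immediate early genes are switched on within minutes of a stimulus from factors already present in the cell. A set of 37 immediate early and AP-1 response genes, all AP-1 subunits of the FOS and JUN families included, was followed in brain endothelial cells of mice fed bezafibrate. The 37 genes were taken by name from the deposited gene table, where all 37 were found among 54532 genes. With at least 1 FPKM (fragments per length of transcript, relative to a library size set by the authors) in at least 3 libraries required, 36 of them were measured among 11277 genes, and Myc was not. The treatment difference lay below 0, that is lower with bezafibrate, for 34 of the 36, against 51.8% of all genes tested, and no member passed the test. Under some other scalings of the libraries, given below, that count was lower. The treatment differences were largest in size for Maff, Egr3, Fosl2, Nr4a3 and Nr4a1, where they lay between -1.19 and -0.89 on the log2 scale. Of these, Maff, Egr3 and Nr4a3 had overlapping groups. The drop of Maff and Egr3 was not shared by both sexes, with Maff at 0.32 within females and Egr3 at 0.07 within males. The most abundant AP-1 genes, Jun and Fos, had differences of 0.0049 and -0.11.

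RNA-seq was run on 6 libraries of brain endothelium from mice aged 12 to 16 weeks, all of genotype Df(h22q11)/+, in which 1 chromosome lacks the stretch that is deleted in human 22q11.2 deletion syndrome. The untreated group (3 libraries, F_1, F_2 and M_1) ate irradiated base chow and the bezafibrate group (3 libraries, F_1, M_1 and M_2) ate chow enriched with 0.5% bezafibrate, a fibrate drug that activates PPAR nuclear receptors, in both cases for 4 weeks. F marks female and M male pools, and every library pooled 3 brains alike in sex, genotype and chow. Wild-type mice were not analysed here. Brains were perfused, minced and digested with papain for 90 minutes and then with collagenase and neutral protease for 30 minutes, both at 35 degrees C, before live CD31+, CD45-, PDGFRb- cells were sorted. The gate keeps endothelial cells of all vessel types together, and the deletion is carried by every cell of the animal.

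Growth factors, cytokines, shear stress and calcium activate MAP kinases, SRF with its ELK partners, and CREB, and these turn on genes for transcription factors such as FOS, JUN, EGR and NR4A proteins. FOS and JUN proteins pair through leucine zippers to form AP-1, which then drives slower target genes, while DUSP phosphatases, ZFP36 and SOCS3 shut the signal off again. In vessels the response is known from flow, injury and inflammation, and enzymatic dissociation of tissue at warm temperature is itself a known inducer of the same genes.

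Promoters of some NR4A, DUSP and FOS members are shown first, since response elements can be read in their sequences. Not every member that was lower with bezafibrate had such elements, as given below. The windows are the 250 bases before the RefSeq start of each gene, 5′ to 3′ on the gene's strand, and capitals mark motif matches. Nr4a1, Nr4a3 and Fos show the CRE core bound by CREB and ATF proteins, Dusp1 the full CRE, and Dusp5 the CArG box bound by SRF.
Nr4a1 (GRCm38.p6, chr15:101266596-101266845, plus strand): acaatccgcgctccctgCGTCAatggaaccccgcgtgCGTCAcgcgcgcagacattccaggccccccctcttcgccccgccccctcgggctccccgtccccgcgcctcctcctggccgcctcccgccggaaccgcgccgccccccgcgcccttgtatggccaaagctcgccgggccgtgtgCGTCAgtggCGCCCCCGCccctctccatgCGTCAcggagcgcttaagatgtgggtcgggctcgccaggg
Nr4a3 (GRCm38.p6, chr4:48045055-48045304, plus strand): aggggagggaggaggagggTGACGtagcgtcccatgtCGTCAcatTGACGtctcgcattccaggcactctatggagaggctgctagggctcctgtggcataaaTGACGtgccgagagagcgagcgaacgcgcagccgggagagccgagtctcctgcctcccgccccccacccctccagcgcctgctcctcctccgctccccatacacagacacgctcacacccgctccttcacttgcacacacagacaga
Dusp5 (GRCm38.p6, chr19:53528895-53529144, plus strand): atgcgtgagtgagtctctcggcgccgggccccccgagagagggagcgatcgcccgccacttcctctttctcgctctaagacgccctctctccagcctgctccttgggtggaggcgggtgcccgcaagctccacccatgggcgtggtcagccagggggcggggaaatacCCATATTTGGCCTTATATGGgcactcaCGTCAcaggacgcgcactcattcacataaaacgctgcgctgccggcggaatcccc
Dusp1 (GRCm38.p6, chr17:26508473-26508722, minus strand): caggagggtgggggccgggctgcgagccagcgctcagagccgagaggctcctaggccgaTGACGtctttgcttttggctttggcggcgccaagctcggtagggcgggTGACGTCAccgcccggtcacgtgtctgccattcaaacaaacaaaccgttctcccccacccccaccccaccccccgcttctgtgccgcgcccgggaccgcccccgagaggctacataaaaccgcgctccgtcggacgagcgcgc
Fos (GRCm38.p6, chr12:85473640-85473889, plus strand): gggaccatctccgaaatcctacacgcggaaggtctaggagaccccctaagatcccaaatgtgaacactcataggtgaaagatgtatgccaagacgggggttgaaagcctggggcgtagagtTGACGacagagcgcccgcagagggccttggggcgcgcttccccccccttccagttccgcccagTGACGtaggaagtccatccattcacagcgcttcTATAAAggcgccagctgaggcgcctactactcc
The Nr4a1 and Nr4a3 windows each held 4 CRE cores, Nr4a1 also an EGR match, Dusp5 adjoining CArG boxes at bases -82 to -73 and -72 to -63 from the start, Dusp1 a CRE at -143 to -136, and Fos CRE cores and a TATA box at -33 to -28.

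RefSeq promoters of GRCm38.p6 were found for 27 of the 37 members (33 promoters). Both strands were searched for the CRE TGACGTCA, its core TGACG (which every CRE contains), the EGR motif GCGNGGGCG, the TATA box TATAAA, the AP-1 motif TGANTCA and the CArG box (CC, then 6 bases of A or T, then GG). The CRE core was present in 14 of 27 members (51.9%) and in 17.8% of all 32851 promoters of the same length. An EGR match was present in 10 of 27 members against 4.7% of all promoters, and the full CRE in Btg2, Dusp1 and Maff (11.1%) against 1.55%. CArG boxes were found for Dusp5, Egr2 and Zfp36 (11.1%, against 1.47%), a TATA box for 6 members (22.2%, against 12.4%) and the AP-1 motif for Zfp36l1 alone (3.7%, against 6.75%). Among members not printed, the Fosl2 window held an EGR match alone and the Dusp6 window held none of these motifs. The member shares are per gene, so a gene with several promoters counts once if any holds the motif, while the background is per promoter. A match describes letters in the window and is not a measured site, and of the printed genes only Fos has the same start in RefSeq and in the deposited table, the RefSeq starts of Nr4a1, Nr4a3, Dusp5 and Dusp1 lying inside the span the table gives.

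Depth was even, at 16858130 to 20228619 recovered reads, and a library held 11060 to 11387 genes at 1 FPKM or more. On the first principal component of all genes (39.3% of the variance), 2 libraries stood apart, untreated M_1 at 30.3 and bezafibrate F_1 at 24.4, while the other 4 lay between -22.6 and 1.62. All 13 endothelial markers were measured, summing to 7928 to 11686 FPKM untreated and 7079 to 11120 with bezafibrate. Of these 13, 10 had a treatment difference below 0 with a median of -0.12 (6 after rescaling to TPM and 4 after quantile normalization), and their part in the results on the members was not tested. The endothelial marker Egfl7 was higher in every bezafibrate pool than in every untreated pool, as were 4.29% of all genes. Of all genes tested, 1 passed the treatment test (0.00887%), and it was no member (the gene model Gm27616).

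**Figure D1:**
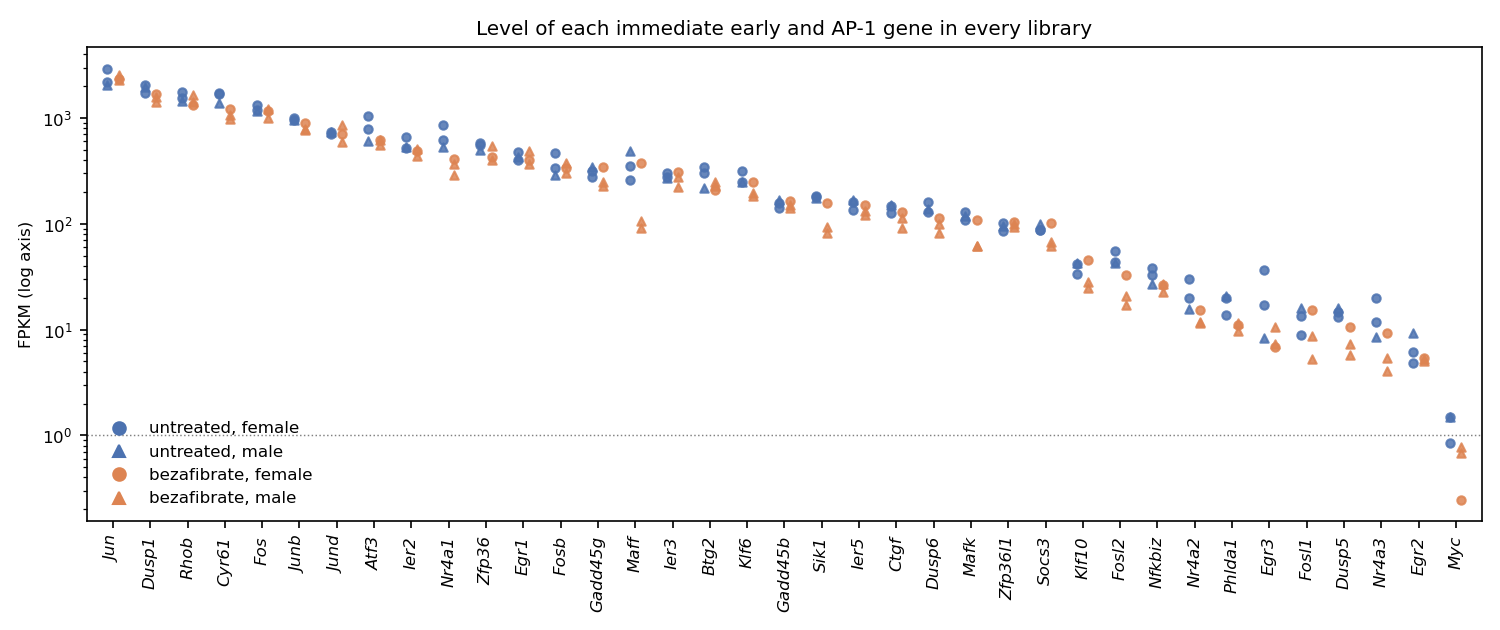
FPKM on a log axis of each of the 37 genes in each library, ordered by mean level, with untreated libraries in blue, bezafibrate libraries in orange, circles for female and triangles for male pools. Levels run from a mean of 2383 FPKM for Jun down to 0.245 to 1.51 FPKM for Myc, and the orange points lie below the blue ones without overlap for 12 of the 36 measured genes. The same share over all genes tested was 4.13%.

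Treatment was tested with limma on log2(FPKM + 1), with Benjamini-Hochberg adjustment of p across the 11277 genes. A log2 difference below is bezafibrate minus untreated on that scale, with its standard error, and it understates the change of low genes. No member was called, with a smallest adjusted p of 0.962, against 0.00887% of all genes called. At an unadjusted p under 0.05, 10 members were lower and 0 higher, where 2.08% of all genes were lower and 2.1% higher. That count of 10 was 16 without bezafibrate F_1 (5.05% of all genes lower in the same fit), 5 without bezafibrate M_1 (1.46%) and 5 without bezafibrate M_2 (1.59%). A difference below 0 was found for 34 of 36 members, against 51.8% of all genes, with a median of -0.31 against -0.01. After rescaling to TPM it was 27 of 36 against 31.7%, since that scaling shifts the median of all genes by 0.11, and after quantile normalization 27 against 48.9%. Groups did not overlap for 12 members, all lower with bezafibrate, whereas 4.13% of all genes were lower and 4.29% higher without overlap. Without bezafibrate F_1 it was 21 members, against 14.3% of all genes lower, and without both libraries that stood apart 26, against 20%, since fewer libraries separate more easily. These counts hold on the deposited FPKM scale. After rescaling to TPM the groups of Junb, Klf6, Ier2 and Nr4a2 overlapped, while those of Mafk no longer did. For a single gene, 3 libraries against 3 cannot give an exact two-sided permutation p below 0.1.

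**Figure D2:**
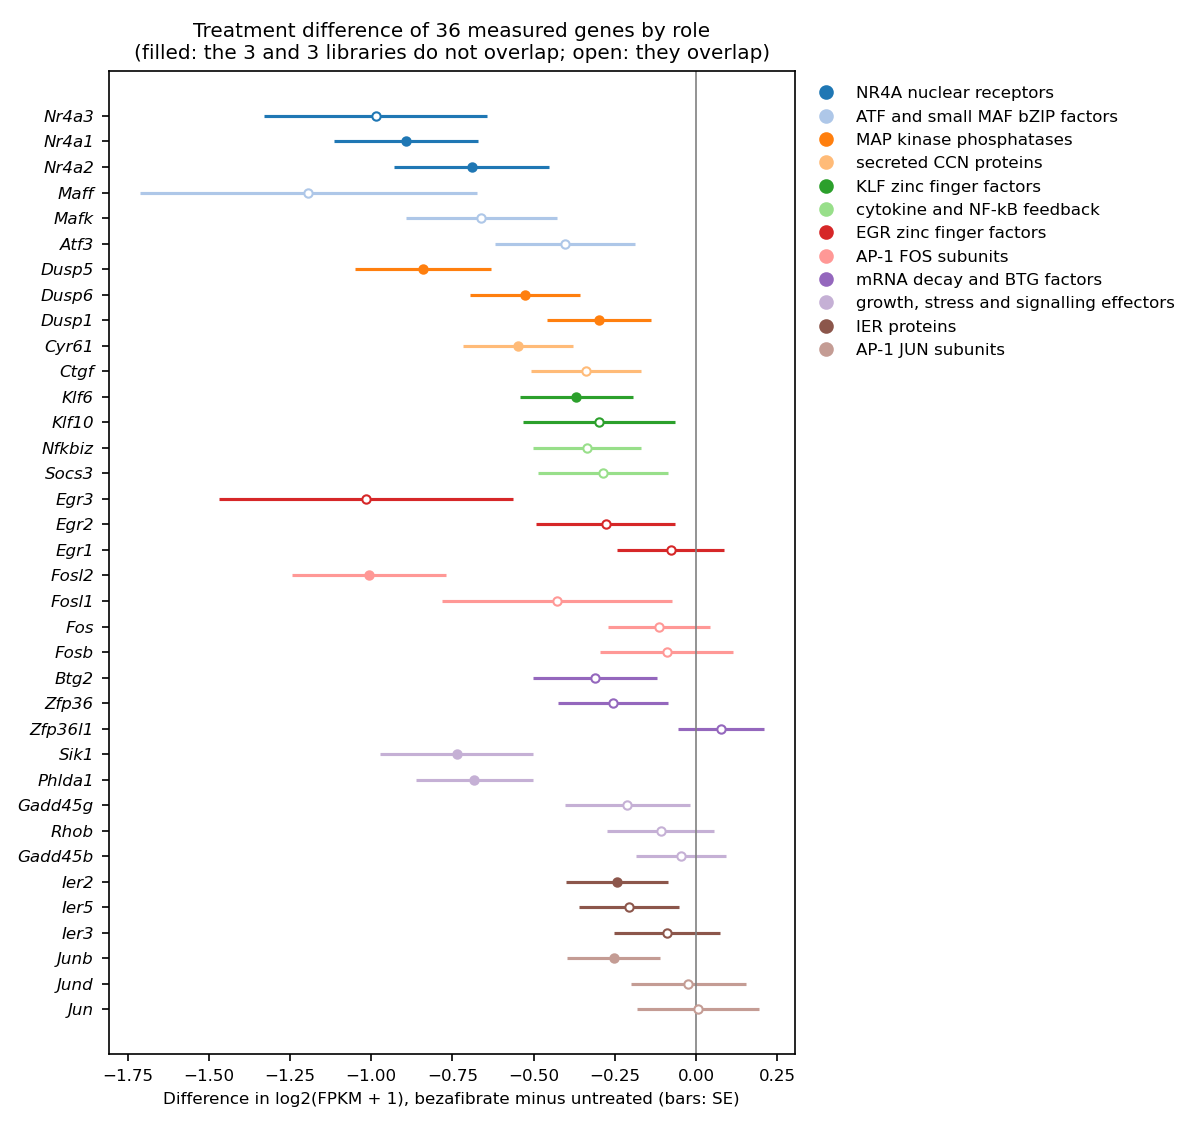
Treatment difference in log2(FPKM + 1), bezafibrate minus untreated, of the 36 measured genes ordered and coloured by role, with bars of 1 standard error and filled points where the groups do not overlap. Points lie left of 0 for 34 genes, furthest for Maff, Egr3 and Fosl2, and at or right of 0 for Jun and Zfp36l1, with no filled point right of 0.

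The FOS subunits are the AP-1 partners that cannot pair with themselves and are the most strongly inducible. Fosl2 (chr5:32135801-32157842, plus strand), which encodes FRA2, stood at 54.8, 43.3 and 42.4 FPKM untreated and 32.5, 17.2 and 20.6 FPKM with bezafibrate. Gene positions are those of the deposited table (GRCm38), and library values are given throughout in the order F_1, F_2, M_1 for untreated and F_1, M_1, M_2 for bezafibrate. All 3 bezafibrate pools lay below all 3 untreated ones, and the mean was 49.9% lower, a log2 difference of -1.01 ± 0.24. Fos (chr12:85473890-85477273, plus strand), the founding member, stood at 1189.8, 1315 and 1162 FPKM untreated and 1166, 1004 and 1227 FPKM with bezafibrate. Its groups overlapped, the difference was -0.11 ± 0.16, and it lay above 0 after rescaling to TPM or quantile normalization.

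Fosb, a close relative of Fos, stood at 339.7, 469 and 289 FPKM untreated and 334, 304 and 376 FPKM with bezafibrate, with overlapping groups and a difference of -0.09 ± 0.20 that also lay above 0 under both of those scalings. Fosl1, which encodes FRA1, stood at 8.83, 13.5 and 15.9 FPKM untreated and 15.3, 5.32 and 8.60 FPKM with bezafibrate. Here untreated M_1 and bezafibrate F_1 had the highest values and the male bezafibrate pools the lowest, with a difference of -0.43 ± 0.35. Of the exon bases of Fosl1, 57.2% are shared with the antisense gene Ccdc85b, and whether the counting used strand is not given, so that the reads of the pair cannot be told apart. Differences of the 4 FOS genes had a median of -0.27 (-0.17 and -0.19 under the other scalings), and Fosl2 was the one gene of the 4 without overlap.

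JUN subunits pair with FOS, ATF or each other. Jun (chr4:95049034-95052222, minus strand) was the most abundant member, at 2183, 2931 and 2063 FPKM untreated and 2328, 2272 and 2522 FPKM with bezafibrate. Its values overlapped, untreated F_2 was highest, and the difference was 0.0049 ± 0.19. Junb, which often restrains JUN, stood at 950.5, 991 and 966 FPKM untreated and 891, 764 and 789 FPKM with bezafibrate. The bezafibrate pools were all below the untreated ones, 16% lower in the mean, with a difference of -0.25 ± 0.14 whose size is under 2 standard errors. After rescaling to TPM the groups of Junb overlapped. Jund, the subunit that is present at rest, stood at 708, 729.9 and 734 FPKM untreated and 710.2, 587 and 865 FPKM with bezafibrate, with the bezafibrate males at both ends of the range and a difference of -0.02 ± 0.18 that lay above 0 under both other scalings. Antisense genes share 52.6% of the exon bases of Jund, 7.52% of Junb and 7.28% of Jun. The JUN genes had a median of -0.02, which was 0.09 after rescaling to TPM and 0.20 after quantile normalization. The sum over Fos, Fosb, Fosl1 and Fosl2 ran from 1509 to 1841 FPKM untreated and from 1330.0 to 1632 FPKM with bezafibrate, and these ranges overlap.

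Among the other bZIP factors, the small MAF proteins lack an activation domain and pair with NRF2 or BACH proteins. Mafk stood at 107, 130.1 and 118 FPKM untreated and 108, 62.3 and 61.0 FPKM with bezafibrate. The bezafibrate female pool was level with untreated F_1 and both male pools were lower than every untreated pool, with a difference of -0.66 ± 0.23. Maff (chr15:79346621-79359076, plus strand) stood at 259, 352 and 482 FPKM untreated and 376, 91.4 and 105 FPKM with bezafibrate. Its male bezafibrate pools were the lowest of the 6, while the female bezafibrate pool lay above both untreated female pools, and the difference was -1.19 ± 0.52. Atf3, a stress-induced repressor, averaged 812 ± 221 FPKM (SD, n = 3) untreated and 599 ± 38.4 with bezafibrate, a difference of -0.40 ± 0.22 with overlapping groups.

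NR4A proteins are orphan nuclear receptors that act without a known ligand and are induced through CREB and MEF2. All 3 genes were lower with bezafibrate at an unadjusted p under 0.05, as were 2.08% of all genes. Their median difference was -0.89, and none passed adjustment. After rescaling to TPM or quantile normalization all 3 were still below 0, with medians of -0.78 and -0.70. Nr4a1 (chr15:101254269-101274795, plus strand), also called Nur77, stood at 849, 622 and 530.2 FPKM untreated and 412, 289 and 365 FPKM with bezafibrate. The groups did not overlap, the mean was 46.7% lower, and the difference was -0.89 ± 0.22. Nr4a2 (chr2:57106830-57124003, minus strand), known as Nurr1, stood at 30.1, 20.04 and 15.8 FPKM untreated and 15.3, 11.5 and 11.8 FPKM with bezafibrate. Its groups adjoined without overlap between untreated M_1 and bezafibrate F_1, and the difference was -0.69 ± 0.24. After rescaling to TPM these groups overlapped. Nr4a3 (chr4:48045153-48086447, plus strand), known as NOR1, stood at 19.96, 11.8 and 8.58 FPKM untreated and 9.25, 5.39 and 4.04 FPKM with bezafibrate. Untreated M_1 lay below bezafibrate F_1, so the groups overlapped by that pair, and the difference was -0.99 ± 0.34. In all 3 genes untreated F_1 was the highest library and untreated M_1 the lowest of its group. The CRE core was present in the promoter windows of all 3, as in the sequences of Nr4a1 and Nr4a3 printed above.

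The MAP kinase phosphatases switch off the kinases that induce them. Dusp5 (chr19:53529109-53542431, plus strand), a nuclear ERK phosphatase, stood at 14.7, 13.1 and 15.9 FPKM untreated and 10.6, 5.76 and 7.27 FPKM with bezafibrate. It was 45.8% lower in the mean, without overlap, and the difference was -0.84 ± 0.21. Dusp6 (chr10:99263231-99267489, plus strand), the cytoplasmic ERK phosphatase, stood at 128, 159 and 137 FPKM untreated and 114, 81.6 and 101 FPKM with bezafibrate. Its groups did not overlap and the difference was -0.53 ± 0.17. Dusp1 (chr17:26505590-26508519, minus strand), which acts on p38 and JNK as well, stood at 1725, 2045 and 1953 FPKM untreated and 1677, 1409.6 and 1563 FPKM with bezafibrate. The highest bezafibrate value lay just under the lowest untreated one, and the difference was -0.30 ± 0.16. Thus all 3 phosphatases were without overlap, where 4.13% of all genes were lower without overlap. Their differences ran from -0.84 to -0.30 with a median of -0.53 (-0.41 after rescaling to TPM or quantile normalization, where all 3 were below 0). Antisense genes share 22.1% of the exon bases of Dusp5, and its recovered reads numbered 303 to 730 per library.

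CCN proteins are secreted matrix proteins and textbook targets of SRF and YAP. Cyr61 (chr3:145646976-145649981, minus strand), now named Ccn1, stood at 1680.0, 1713 and 1380.0 FPKM untreated and 1213, 1071 and 977 FPKM with bezafibrate. All bezafibrate pools were below all untreated pools, 31.7% lower in the mean, with a difference of -0.55 ± 0.17. Ctgf, now Ccn2, averaged 141 ± 13.8 FPKM (SD, n = 3) untreated and 112 ± 19.1 with bezafibrate, and its groups overlapped with a difference of -0.34 ± 0.17. Antisense genes share 23.2% of the exon bases of Ctgf.

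Among the effectors of growth, stress and signalling, Sik1 (chr17:31844248-31855792, minus strand), a salt-inducible kinase that restrains CREB coactivators, stood at 178, 183 and 175 FPKM untreated and 156, 82.4 and 94.2 FPKM with bezafibrate. The untreated pools lay close together, the female bezafibrate pool was a little below them and the male ones were far below, with a difference of -0.74 ± 0.24. Phlda1 (chr10:111506286-111508645, plus strand), a pleckstrin-homology protein, stood at 19.9, 13.8 and 20.8 FPKM untreated and 11.1, 9.73 and 11.6 FPKM with bezafibrate. The groups did not overlap, the mean was 40.6% lower and the difference was -0.68 ± 0.18. Antisense genes share 33.0% of its exon bases. Rhob, a small GTPase of endosomes and the actin skeleton, stood at 1544, 1749 and 1454 FPKM untreated and 1339, 1422 and 1643 FPKM with bezafibrate, with overlapping groups and a difference of -0.11 ± 0.16. Gadd45b and Gadd45g, growth arrest proteins that bind MAP kinase kinase kinases, overlapped too, with differences of -0.05 ± 0.14 and -0.21 ± 0.19. Rhob and Gadd45b lay above 0 after rescaling to TPM or quantile normalization. Myc, the growth regulator, failed the filter at 1.501, 0.847 and 1.51 FPKM untreated and 0.245, 0.675 and 0.783 FPKM with bezafibrate, from 12 to 82 reads per library, and was not tested.

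The other members are given by range. The EGR zinc finger factors had a median difference of -0.28 with overlap in all 3. Egr3 was the widest, averaging 20.5 ± 14.3 FPKM (SD, n = 3) untreated and 8.24 ± 2.02 with bezafibrate, a difference of -1.02 ± 0.45, and its untreated pools ran from 36.2 in F_1 to 8.34 in M_1. Egr1, the most abundant of the family, had a difference of -0.08 ± 0.17, which lay above 0 after rescaling to TPM or quantile normalization, and Egr2 -0.28 ± 0.21. Of the KLF factors, Klf6 was without overlap at -0.37 ± 0.17 and Klf10 overlapped at -0.30 ± 0.23. Ier2, one of the short nuclear IER proteins, was without overlap at -0.24 ± 0.16, while Ier5 and Ier3 overlapped at -0.21 ± 0.15 and -0.09 ± 0.16, the latter above 0 under the same scalings. After rescaling to TPM the groups of Klf6 and Ier2 overlapped as well.

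ZFP36 proteins bind AU-rich elements and destabilise the mRNAs of this response. Zfp36 had a difference of -0.26 ± 0.17 and Zfp36l1 of 0.08 ± 0.13, the member with the highest difference, though antisense genes share 55.9% of its exon bases. Btg2, an antiproliferative factor that recruits the deadenylase, had a difference of -0.31 ± 0.19. The feedback inhibitor Socs3 of cytokine receptors and the NF-kB regulator Nfkbiz had differences of -0.29 ± 0.20 and -0.34 ± 0.17. All of these overlapped between groups.

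Level and difference varied together within the set. Among the 12 most abundant members (426 to 2383 FPKM in the mean of all libraries) the median difference was -0.25, among the 12 of middle level it was -0.32, and among the 12 least abundant (6.003 to 95.9 FPKM) it was -0.55. Groups did not overlap for 5, 3 and 4 genes of these tiers, all lower with bezafibrate, where 4.13% of all genes were lower without overlap. Across the 36 genes, log2 level and difference had a Pearson r of 0.465 and a Spearman rho of 0.468, a description over genes that share the same 6 libraries and are not replicates.

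Most of the low values came from the male bezafibrate pools. The lowest of the 6 libraries was bezafibrate M_1 for 21 of the 36 genes, bezafibrate M_2 for 8 and bezafibrate F_1 for 3, and an untreated pool for the remaining 4. Bezafibrate M_1 was below every untreated pool for 30 genes, M_2 for 22 and F_1 for 18. The mean log2(FPKM + 1) over the members was 7.49, 7.48 and 7.39 in the untreated pools and 7.25, 6.86 and 7.01 in the bezafibrate pools, while over all genes tested it stayed between 3.04 and 3.07. The lowest untreated mean and the highest bezafibrate mean, which do not cross, belong to the libraries that stood apart. Summed FPKM over the whole table was not level. It was 284201, 302691 and 322934 in the untreated pools and 308365, 254277 and 277379 in the bezafibrate pools, lowest in the male bezafibrate pools. Its part in the differences of the members was not tested. In bulk samples, fewer cells of a responding type and less RNA per cell cannot be told apart.

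Other genes of the pathway came from lists that held no member. These lists, like the members, were chosen with earlier results of these data known, and they share the same 6 libraries. Of 27 other immediate early genes, 24 were measured and all 24 had a difference below 0, with a median of -0.32. The test called 0 of them, and 8 had an unadjusted p under 0.05 and were lower, as did 2.08% of all genes. Mapk6, which encodes the atypical kinase ERK3, stood at 19.7, 20.7 and 22.7 FPKM untreated and 15.6, 9.96 and 10.2 FPKM with bezafibrate, a difference of -0.80 ± 0.19. Gem, a GTP-binding protein that damps calcium channels, stood at 38.7, 34.1 and 31.0 FPKM untreated and 25.3, 19.1 and 23.7 FPKM with bezafibrate, a difference of -0.59 ± 0.16. In both, the bezafibrate pools lay below all untreated pools. Klf2, the flow-induced factor of endothelium and the most abundant of the list, stood at 2061, 2095 and 1684 FPKM untreated and 1648, 1501 and 1799 FPKM with bezafibrate, with overlapping groups and a difference of -0.24 ± 0.17. After rescaling to TPM or quantile normalization, 20 of the 24 were below 0.

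Feedback inhibitors outside the members were lower in 17 of 18 cases (14 after rescaling to TPM and 16 after quantile normalization), with a median of -0.36, 4 at an unadjusted p under 0.05 and 0 called. At that unadjusted p 2.08% of all genes were lower. Dusp4, another nuclear phosphatase, stood at 3.25, 1.60 and 3.34 FPKM untreated and 0.953, 1.03 and 0.971 FPKM with bezafibrate, a difference of -0.87 ± 0.23. Errfi1, an inhibitor of the EGF receptor, stood at 50.9, 33.9 and 36.2 FPKM untreated and 27.5, 15.2 and 22.2 FPKM with bezafibrate, a difference of -0.89 ± 0.24. Neither overlapped between groups. Nfkbia, the NF-kB inhibitor and the most abundant of them, stood at 675, 608 and 687 FPKM untreated and 639, 415 and 493 FPKM with bezafibrate, a difference of -0.37 ± 0.19 with bezafibrate F_1 inside the untreated range.

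Of 20 target genes of AP-1 and SRF, 11 were measured, and 10 of these were below 0 (9 after rescaling to TPM) with a median of -0.66, 3 at an unadjusted p under 0.05 and 0 called. Again 2.08% of all genes were lower at that unadjusted p. Hbegf, an EGF receptor ligand, stood at 117, 113 and 132 FPKM untreated and 109, 59.5 and 66.1 FPKM with bezafibrate, lower without overlap, with a difference of -0.67 ± 0.23. Cxcl2, a neutrophil chemokine, stood at 9.76, 2.36 and 6.64 FPKM untreated and 3.06, 1.52 and 1.83 FPKM with bezafibrate, a difference of -1.08 ± 0.41 with overlap. Actb, the actin gene and an SRF target, stood at 1376, 1672 and 1482 FPKM untreated and 1417, 1001 and 919 FPKM with bezafibrate, a difference of -0.46 ± 0.20 with bezafibrate F_1 inside the untreated range. In the library means of this list bezafibrate F_1 lay within the untreated range, and both male bezafibrate pools lay below it. Il6, Lif, Ccl2, Mmp9, Mmp3, Tagln and Ankrd1 stayed below 1 FPKM in every library.

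Possible AP-1 partners outside the members were counted next. Of 11 measured bZIP genes of 12, 10 were below 0 with a median of -0.16 (8 with a median of -0.07 after rescaling to TPM), and 1, Bach1, the partner repressor of small MAF proteins, had an unadjusted p under 0.05. Bach1 stood at 10.9, 7.52 and 7.15 FPKM untreated and 5.27, 6.10 and 5.82 FPKM with bezafibrate, a difference of -0.48 ± 0.18 without overlap. After rescaling to TPM the groups of Bach1 overlapped. Jdp2, a JUN-dimerising repressor and the most abundant of them, stood at 24.2, 26.9 and 39.2 FPKM untreated and 30.8, 17.5 and 24.8 FPKM with bezafibrate, with overlapping groups and a difference of -0.30 ± 0.25.

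Genes for the upstream machinery were counted in the same way. Of 23 kinases and GTPases from RAS to ERK, JNK, p38 and RSK, 6 were below 0 and 17 above, with a median of 0.03 (4 below 0 and a median of 0.14 after rescaling to TPM) and none at an unadjusted p under 0.05 in either direction. Mapk3, which encodes ERK1 and was the most abundant, stood at 133, 121 and 133 FPKM untreated and 134, 131 and 151 FPKM with bezafibrate, with overlapping groups and a difference of 0.10 ± 0.13. Rps6ka3, which encodes RSK2, stood at 20.7, 21.1 and 24.7 FPKM untreated and 20.5, 18.4 and 15.5 FPKM with bezafibrate, lower without overlap, with a difference of -0.28 ± 0.15. After rescaling to TPM the groups of Rps6ka3 overlapped. Map2k3, which encodes an activator of p38, stood at 22.6, 22.0 and 60.8 FPKM untreated and 38.0, 14.0 and 21.0 FPKM with bezafibrate, a difference of -0.46 ± 0.46. Its highest values were those of untreated M_1 and bezafibrate F_1, and the groups overlapped. Of 18 upstream transcription factors and cofactors, 12 were below 0 with a median of -0.14 (10 with a median of -0.036 after rescaling to TPM), and again none had an unadjusted p under 0.05. Atf4, the factor of the integrated stress response and the most abundant, stood at 223, 259 and 251 FPKM untreated and 234, 175 and 169 FPKM with bezafibrate, a difference of -0.35 ± 0.17 with bezafibrate F_1 inside the untreated range. Srf, itself also listed among the immediate early genes, stood at 60.6, 79.9 and 54.2 FPKM untreated and 71.6, 36.3 and 25.6 FPKM with bezafibrate, again with bezafibrate F_1 inside the untreated range and a difference of -0.64 ± 0.35. These are mRNA levels, and phosphorylation was not measured.

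**Figure D3:**
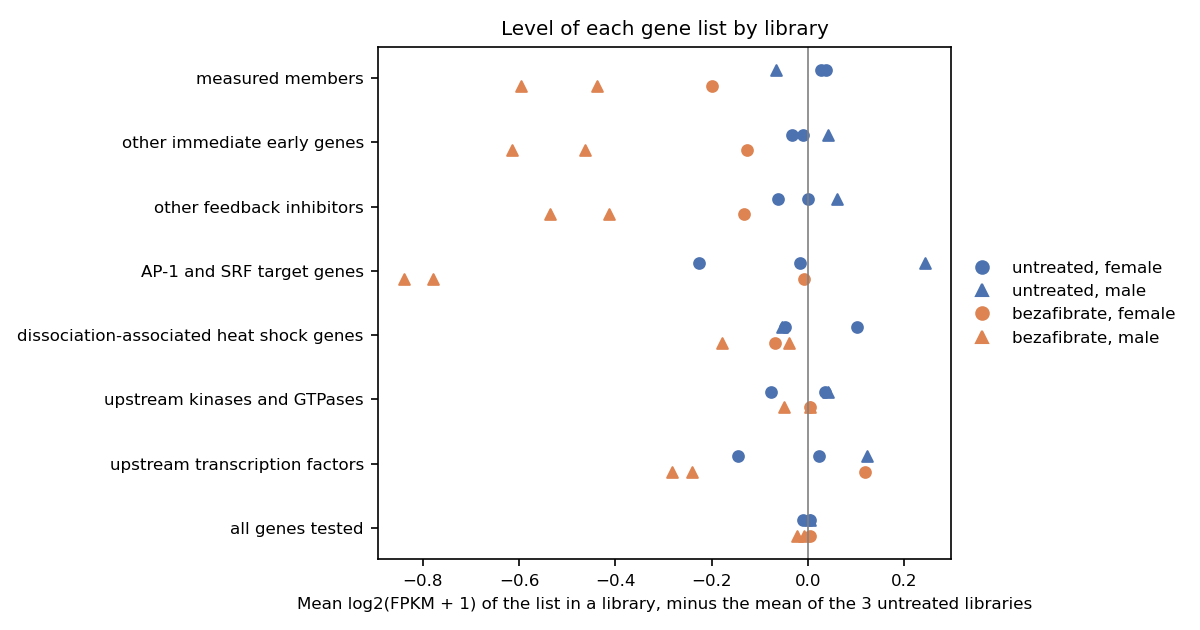
Mean log2(FPKM + 1) of each gene list in each library, given as the distance from the mean of the 3 untreated libraries (vertical line at 0), with female pools as circles and male pools as triangles. The members and the other immediate early genes lie left of 0 in all bezafibrate pools and furthest in the male ones, where the kinases, the heat shock genes and all genes lie closer to 0.

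Because the cells were digested at 35 degrees C before sorting, the heat shock and other stress genes that dissociation is known to raise were set beside the members. Of 16 measured genes of 17, 13 were below 0 with a median of -0.09 (7 with a median of 0.03 after rescaling to TPM and 8 with a median of 0.02 after quantile normalization), and none had an unadjusted p under 0.05 in either direction. Their summed level ran from 17809 to 21843 FPKM untreated and from 16451 to 19494 FPKM with bezafibrate, overlapping ranges. Hspb1, a small heat shock protein and the most abundant, stood at 4978, 6394 and 6321 FPKM untreated and 5479, 4913 and 5406 FPKM with bezafibrate, a difference of -0.16 ± 0.18. Hspa5, the chaperone of the endoplasmic reticulum, stood at 256, 243 and 256 FPKM untreated and 224, 187 and 207 FPKM with bezafibrate, lower without overlap at -0.29 ± 0.14. Hspe1, a mitochondrial chaperonin, stood at 16.2, 17.3 and 15.5 FPKM untreated and 16.6, 25.8 and 27.0 FPKM with bezafibrate, a difference of 0.45 ± 0.20 with overlap. Per the labels 1 dissociation protocol served for all libraries, the sources used here do not give its time for each library, and the part of induction during dissociation in the differences was not tested.

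Markers of other cell types that the sort could hold lay mostly to one side of 0 in some lists. Oligodendrocyte markers were below 0 in 7 of 7 (median -0.39, sums of 92.9 to 151 FPKM untreated and 89.6 to 102 with bezafibrate), and astrocyte markers in 7 of 7 (median -0.26, 41.1 to 63.3 and 27.9 to 50.6 FPKM). Pericyte markers were below 0 in 7 of 8 (median -0.26, 186 to 336 and 182 to 257 FPKM), and choroid plexus and ependymal markers above 0 in 5 of 6 (median 0.32, 359 to 402 and 406 to 939 FPKM). Microglial markers summed to 28.0 to 35.2 FPKM untreated and 20.9 to 30.9 FPKM with bezafibrate, with Cx3cr1 and Aif1 below 1 FPKM in every library, and 5 of 6 measured were below 0. The 8 leukocyte markers summed to 4.60 to 7.79 FPKM untreated and 6.37 to 7.86 FPKM with bezafibrate, where S100a8 was at 0 and Ptprc, Cd3e, Cd79a, S100a9 and Mrc1 were below 1 FPKM in every library. Smooth muscle markers were below 0 in 3 of 4 measured (59.1 to 82.8 and 69.2 to 96.8 FPKM) and erythrocyte markers in 3 of 4 (45.4 to 298 and 51.4 to 149 FPKM), and neuronal and fibroblast markers summed to under 5 FPKM in each library. At an unadjusted p under 0.05, 2 oligodendrocyte markers were lower (2.08% of all genes) and 1 choroid plexus or ependymal marker was higher (2.1%). Without overlap, 2 oligodendrocyte markers were lower (4.13% of all genes). Higher without overlap were 2 choroid plexus or ependymal markers and 1 microglial marker (4.29%). No marker was called, and the part of any of these cells in the differences of the members was not tested.

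Sex is uneven between the groups, with 2 female pools and 1 male pool untreated and 1 female and 2 male with bezafibrate. Within females, where 1 bezafibrate pool is set against 2 untreated pools, 27 of 36 members were below 0 with a median of -0.17, against 48.4% and 0.01 for all genes. Within males, with 2 bezafibrate pools against 1, 30 of 36 were below 0 with a median of -0.40, against 51.1% and -0.01. The lone pool is one of the libraries that stood apart in each case. Fosl2 differed by -0.57 within females and -1.13 within males, Nr4a1 by -0.82 and -0.70, Cyr61 by -0.48 and -0.43, and Nr4a3 by -0.68 and -0.76. Sik1 and Mafk differed by -0.21 and -0.13 within females and by -0.98 and -0.92 within males. Egr3 differed by -1.71 within females and by 0.07 within males. In a limma fit with treatment as covariate, sex called 3 genes of all tested (0.0266%) and none of the members, whose median male minus female difference was -0.19. At an unadjusted p under 0.05 in that fit, Nr4a3 and Nr4a2 were lower in males, by -0.81 ± 0.24 and -0.49 ± 0.20. The share of all genes at that p was not counted for sex.

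**Figure D4:**
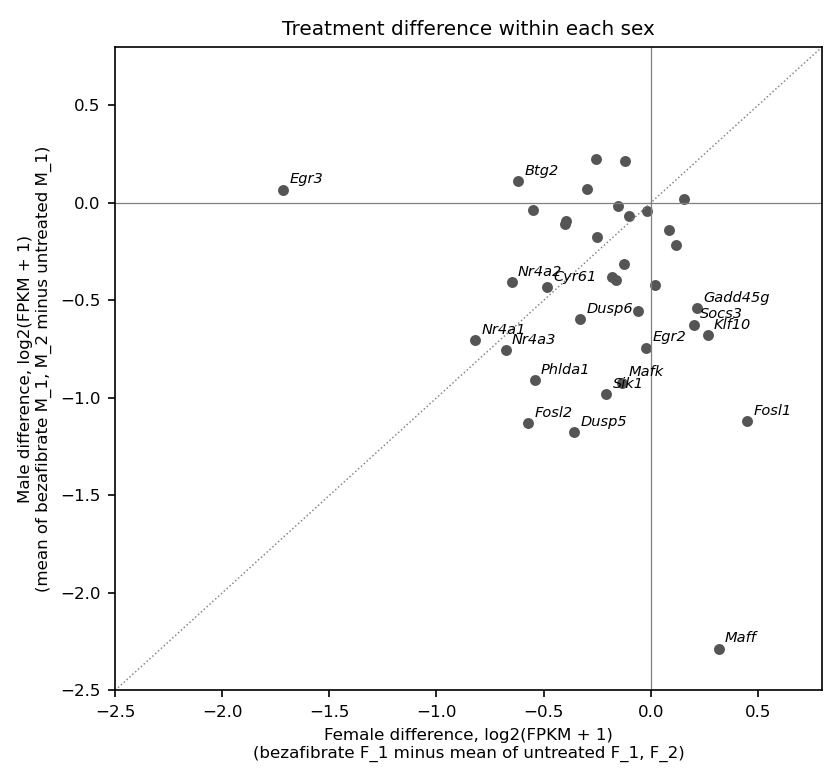
Treatment difference in log2(FPKM + 1) of each measured gene within males (vertical axis, 2 bezafibrate pools and 1 untreated) against that within females (horizontal axis, 1 bezafibrate pool and 2 untreated), with a dotted line of equal differences. Most points lie at lower left, Maff stands apart at 0.32 in females and -2.29 in males, and Egr3 at -1.71 in females and 0.07 in males.

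The treatment by sex interaction, fitted with limma, tested whether these differences were unequal between the sexes. It called 75 of all genes (0.665%) and 1 member, Maff, with a Benjamini-Hochberg adjusted p of 0.0476. The difference of Maff was 0.32 within females and -2.29 within males, an interaction of -2.60. That fit leaves 2 residual degrees of freedom, and its male untreated and female bezafibrate values are a single library each, which are the 2 libraries that stood apart. They had the highest and second highest level of Maff, 482 and 376 FPKM, so sex, treatment and the state of these libraries cannot be told apart for this gene. Without both of them the remaining untreated pools are female and the bezafibrate pools male. The call of Maff was lost under 4 other settings, with an adjusted p of 0.0505 at a pseudocount of 0.5, 0.131 without the filter, 0.0594 after quantile normalization and 0.0723 without the trend.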

How the data were processed

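Total RNA of sorted brain endothelial cells was made into SMART-Seq HT and Nextera XT libraries and read as single ends of 75 bases. Per the labels' protocols the authors de-duplicated the reads and mapped them to the mouse transcriptome with Salmon (version not given), and GRCm38 is named per the submitters' processing notes. Removing identical reads can lower the values of abundant genes. The deposited table holds FPKM made by the authors, with gene lengths. How they were normalised and whether strand was used is not stated in those sources. For the untreated male library, the number in the column name differs from the sample's title, and the column was matched by the sample's description.

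In each library FPKM times length came in whole multiples of 1 step (tolerance 0.01 reads), which gave the depth and the reads for a voom fit. The summed reads were 0.888 to 1.09 of the library size that this step implies, so that size was not the summed reads. The ratio was lowest in bezafibrate M_1 (0.888) and M_2 (0.897). Genes with at least 1 FPKM in at least 3 libraries (11277) were tested by limma 3.58.1 under R 4.3.3 (lmFit, eBayes with trend) on log2(FPKM + 1), two-sided, with Benjamini-Hochberg adjustment over all genes tested and calls at an adjusted p under 0.05. Treatment had no covariate, since the labels combine the sexes. Sex had treatment as covariate, and the interaction their product. The replicates are pools of different animals, and p measures the spread among pools. The limma step was tested on simulated data. Motifs were counted with Python 3.11.15.

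Values in every library are given for the 10 members with the lowest p, the 5 most abundant, every FOS and JUN gene and any called member, and from each other list for the 2 genes with the lowest p and the most abundant. Members and lists were chosen with earlier results of these data known. Alternatives were other pseudocounts (0.1 and 0.5), filters, scalings (TPM, TMM, quantile), voom, no trend, array weights, sex as covariate, a replicate block and leaving out libraries.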

Additional observations from a re-analysis of the deposited data

Results flagged for a closer look

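The treatment by sex interaction of Maff passed the limma test with a Benjamini-Hochberg adjusted p of 0.0476, so its treatment difference was unequal between the sexes by that test. Maff stood at 259, 352 and 482 FPKM in untreated F_1, F_2 and M_1 and at 376, 91.4 and 105 FPKM in bezafibrate F_1, M_1 and M_2. The female bezafibrate pool lay above both untreated female pools, and both male bezafibrate pools lay below the untreated male pool. The male untreated and the female bezafibrate values each rest on a single library, and both of these libraries stood apart from the others over all genes. Across the other settings the adjusted p ran from 0.000539 (voom, where Fosl1 and Egr3 were called as well) to 0.131 (no filter).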

How the results depend on the processing

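Over 19 alternatives, no member was called (smallest adjusted p 0.0954, limma with Benjamini-Hochberg adjustment). Of the 36 measured members 27 stayed below 0 and Zfp36l1 above 0 under every alternative, and 8 took the other sign under at least 1. After rescaling to TPM the differences were 0.0040 for Fos, 0.027 for Fosb, 0.094 for Jund, 0.039 for Egr1, 0.028 for Ier3, 0.070 for Gadd45b and 0.0083 for Rhob, and after quantile normalization 0.064, 0.042, 0.20, 0.10, 0.084, 0.072 and 0.11 in the same order. With array weights Jun was at -0.17 and Gadd45b at 0.0065. Jun was at -0.080 without both libraries that stood apart. Without single libraries Jun ran from -0.093 (without untreated M_1) to 0.16, Fosb from -0.25 to 0.10 (without untreated F_2) and Gadd45b from -0.11 to 0.0084 (without untreated M_1), and without bezafibrate M_1 the highest values of Jund, Egr1 and Ier3 were reached, in ranges of -0.16 to 0.12, -0.20 to 0.012 and -0.19 to 0.045. Members below 0 numbered 31 to 35 without single libraries, with medians from -0.41 to -0.24. The causes were not tested.

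The replicate block over the shared names F_1 and M_1 left 33 members below 0, 4 of them at an unadjusted p under 0.05 (0.834% of all genes lower in the same fit), put Fosb at 0.023 and called 0 genes in all. Nothing in the labels pairs pools of the same name, and deviations of same-named pools correlated at -0.36 (F_1) and -0.30 (M_1). Array weights gave 23 members at an unadjusted p under 0.05, where 5.49% of all genes were lower. Treatment calls over all genes were 0 with voom, 2 without trend, 0 to 3 without single libraries (3 without bezafibrate F_1) and 0 without both libraries that stood apart. Members whose groups do not overlap numbered 12 to 21 without single libraries (7.16% to 14.3% of all genes lower) and 26 without both (20% of all genes lower), where sex and treatment cannot be told apart and a fit with sex could not be made. Sex calls ran from 1 to 4 without single libraries. Interaction calls were 478 without the filter, 571 at 5 FPKM or more, 222 after TPM, 1 after quantile normalization, 870 with voom and 0 without trend. With 3 pools a group, the median standard error of a member was 0.18, which limits what a difference near 0 can show.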
